A study of Mus musculus with 5 samples.

Results

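Broad open regions were stretches of accessible chromatin called as a single peak of at least 2 kb (end minus start of at least 2000 bp) in any of 5 ATAC-seq libraries. ATAC-seq marks open DNA by inserting sequencing adapters with a transposase, and a peak is an interval in which the recovered fragments pile up above the local background. On chromosomes 1 to 19, 24 peaks of Smc3-het replicate 1 and 48 of replicate 2 were this wide, against 218, 171 and 444 in Smc3-wt replicates 1, 2 and 3. Merged where they overlapped, they gave 623 regions, 0.278% of the 224370 merged regions of any width. The regions were chosen by their measured width, so their number and width are given as descriptions, with no test.

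The cells were lineage-depleted mouse bone marrow, labelled as haematopoietic stem and progenitor cells (HSPC). The Smc3-het group (2 libraries) was Mx1-Cre+, inv(16);Smc3 D/+, and the Smc3-wt group (3 libraries) was Mx1-Cre+, inv(16);Smc3 +/+. All 5 libraries thus carried inv(16) and Mx1-Cre and came from PIPC treatment, so no library shows the marrow without them. PIPC is a synthetic double-stranded RNA that induces interferon. It thereby switches on the Mx1 promoter that drives Cre, which responds in interferon-sensitive cells of many kinds and not in HSPC alone. The labels give no age and do not say that the libraries came from separate mice, so a p-value speaks of the spread among 5 libraries, part of which may be technical.

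Smc3 encodes a core subunit of cohesin, the ring-shaped complex that extrudes and holds chromatin loops between enhancers and promoters. In human leukaemia inv(16) joins the core binding factor gene CBFB to MYH11. Most open regions are narrow nucleosome gaps at a single enhancer or promoter. Broad ones are typical of CpG island promoters, paired promoters that fire in opposite directions, histone gene clusters and the runs of enhancers at regulators of cell identity.

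The promoters below belong to regions broad in 5 of 5 libraries (Lrrc41, Enoph1), to regions broad in all 3 Smc3-wt libraries and no Smc3-het library (Mbnl2, Tent5a, Tle1, Runx1), and to the core binding factor gene Cbfb, broad in Smc3-wt replicate 3 alone. They are RefSeq sequences of GRCm38.p6, 250 bases before to 50 after the gene start, 5′ to 3′ on the gene's strand. Capitals mark every match, on either strand, to 5 short motifs. The ETS core, bound by factors such as Fli1 and Erg, was searched as CCGGAAG. The GATA site of factors such as Gata2 was searched as AGATAA, and the site of the core binding factor, called RUNX here, as TGTGGTT. The AP-1 site of the Fos and Jun proteins was searched as TGANTCA, where N is any base, and the CCAAT box by the letters of its name.
Lrrc41 (chr4:116075019-116075318, plus strand): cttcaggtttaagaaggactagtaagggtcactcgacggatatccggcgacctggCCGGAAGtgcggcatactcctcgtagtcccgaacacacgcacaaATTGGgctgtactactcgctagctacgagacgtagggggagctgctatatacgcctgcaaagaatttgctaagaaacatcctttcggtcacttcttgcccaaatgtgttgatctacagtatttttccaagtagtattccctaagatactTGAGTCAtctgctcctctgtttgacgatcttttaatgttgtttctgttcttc
Enoph1 (chr5:100039744-100040043, plus strand): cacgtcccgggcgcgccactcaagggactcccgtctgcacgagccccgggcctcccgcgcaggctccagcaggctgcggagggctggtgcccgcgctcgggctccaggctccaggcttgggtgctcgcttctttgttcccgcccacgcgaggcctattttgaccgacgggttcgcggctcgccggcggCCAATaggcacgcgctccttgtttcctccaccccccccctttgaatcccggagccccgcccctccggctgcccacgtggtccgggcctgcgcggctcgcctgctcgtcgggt
Mbnl2 (chr14:120275419-120275718, plus strand): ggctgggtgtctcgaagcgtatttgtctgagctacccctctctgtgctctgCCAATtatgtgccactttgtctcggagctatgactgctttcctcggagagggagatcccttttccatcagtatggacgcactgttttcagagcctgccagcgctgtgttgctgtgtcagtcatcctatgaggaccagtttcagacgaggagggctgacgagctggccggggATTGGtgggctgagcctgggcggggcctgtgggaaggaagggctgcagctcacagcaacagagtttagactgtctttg
Tent5a (chr9:85327075-85327374, minus strand): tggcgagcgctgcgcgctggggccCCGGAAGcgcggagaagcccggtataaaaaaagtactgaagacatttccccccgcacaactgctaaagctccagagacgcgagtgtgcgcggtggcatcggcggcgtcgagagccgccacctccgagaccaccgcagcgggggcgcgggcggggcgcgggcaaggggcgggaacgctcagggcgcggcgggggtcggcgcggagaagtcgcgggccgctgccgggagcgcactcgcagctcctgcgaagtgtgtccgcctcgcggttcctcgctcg
Tle1 (chr4:72200844-72201143, minus strand): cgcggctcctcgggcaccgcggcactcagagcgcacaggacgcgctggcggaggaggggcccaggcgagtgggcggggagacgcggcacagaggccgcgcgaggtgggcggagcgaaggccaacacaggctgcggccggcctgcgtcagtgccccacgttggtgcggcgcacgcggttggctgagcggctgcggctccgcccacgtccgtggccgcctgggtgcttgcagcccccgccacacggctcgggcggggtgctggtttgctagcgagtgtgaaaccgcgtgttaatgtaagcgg
Runx1 (chr16:92697280-92697579, minus strand): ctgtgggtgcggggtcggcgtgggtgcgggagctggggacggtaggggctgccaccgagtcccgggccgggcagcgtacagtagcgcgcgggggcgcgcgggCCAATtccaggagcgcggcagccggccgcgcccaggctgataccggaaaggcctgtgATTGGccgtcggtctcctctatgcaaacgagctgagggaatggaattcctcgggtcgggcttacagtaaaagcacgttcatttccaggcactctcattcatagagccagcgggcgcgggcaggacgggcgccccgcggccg
Cbfb (chr8:105170424-105170723, plus strand): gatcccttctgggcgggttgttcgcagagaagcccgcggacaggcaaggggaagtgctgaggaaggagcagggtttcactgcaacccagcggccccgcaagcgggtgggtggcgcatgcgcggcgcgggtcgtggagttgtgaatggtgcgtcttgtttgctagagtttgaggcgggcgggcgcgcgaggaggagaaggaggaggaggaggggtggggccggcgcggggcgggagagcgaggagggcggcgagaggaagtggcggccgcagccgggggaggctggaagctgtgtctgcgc

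Matches were few in these 7 windows. Lrrc41 held an ETS, an AP-1 (palindromic, counted once) and a CCAAT match, Tent5a an ETS match, Enoph1 a CCAAT match, and Mbnl2 and Runx1 a pair of CCAAT matches each, while the windows of Tle1 and Cbfb held none. No matches to different motifs overlapped. CpG dinucleotides were frequent, with 46 in the Tent5a, 40 in the Tle1, 35 in the Runx1 and 30 in the Cbfb window, against 15 at Lrrc41 and 10 at Mbnl2. The Runx1 window is an inner start of the gene, which the region spans from 1640 bp upstream to 616 bp downstream. At Mbnl2 the merged region ran the other way, 469 bp upstream and 3607 bp into the gene. No library called it as 1 peak. Each Smc3-wt list had 2 peaks there, the wider of 2460, 2774 and 2398 bp in replicates 1, 2 and 3.

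The Smc3-wt lists held more broad peaks, in every pairing of libraries, than the Smc3-het lists. Broad peaks made up 0.0911% and 0.136% of all peaks in Smc3-het against 0.338%, 0.174% and 0.375% in Smc3-wt libraries. Their median width differed little, at 2140 and 2134 bp in Smc3-het against 2180, 2168 and 2193 bp in Smc3-wt libraries. Few were far above the threshold. Peaks of 3000 bp or more numbered 2 and 2 in Smc3-het against 6, 6 and 13 in Smc3-wt libraries. In each library 2 of these lay at the loci of multicopy sequence described below, which left no others in Smc3-het. The narrowest peaks inside the threshold were 2017 and 2003 bp in Smc3-het against 2001, 2000 and 2001 bp in Smc3-wt libraries. The widest outside it were 1995 and 1997 bp in Smc3-het against 1999, 1999 and 1999 bp in Smc3-wt libraries. Peaks within 100 bp below the threshold numbered 11 and 22 in Smc3-het against 106, 83 and 188 in Smc3-wt libraries.

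**Figure D1:**
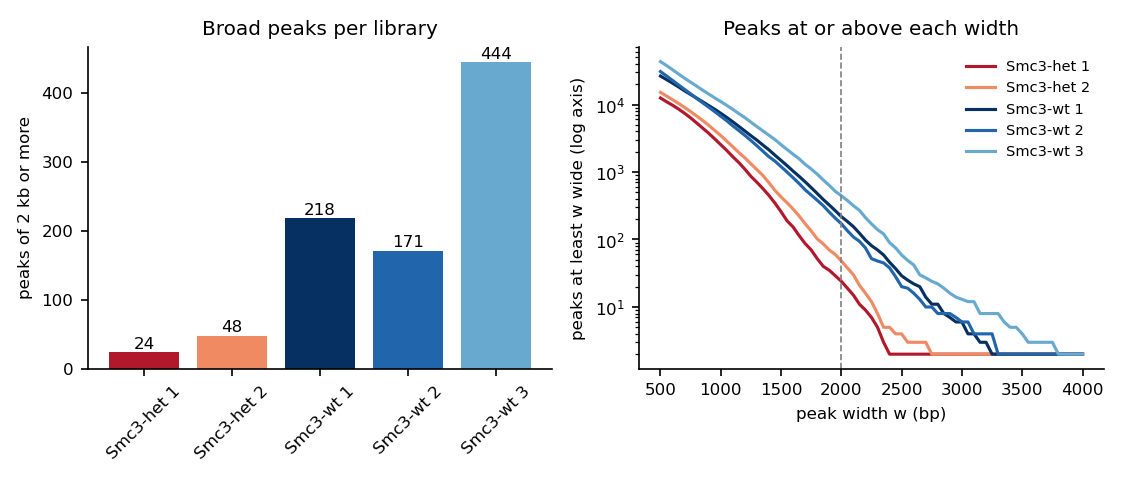
Broad peaks per library (left, bars) and the number of peaks at least as wide as each width in bp (right, log axis; dashed line, 2000 bp), for both Smc3-het and all 3 Smc3-wt libraries. The Smc3-het counts of 24 and 48 lie below the Smc3-wt counts of 218, 171 and 444.

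Signal strength, like these counts, was higher in every Smc3-wt than in every Smc3-het library. Within Smc3-wt the order differed, as replicate 2 had fewer broad peaks than replicate 1 but a slightly higher signal. In the 585 broad regions called at any width in 5 of 5 libraries, the pileup at the summit, divided by the library's background, had a median of 13.6 and 17.1 in Smc3-het against 31.4, 32.6 and 40.7 in Smc3-wt libraries. In all 14288 regions called in 5 of 5 libraries it was 10.6 and 12.7 in Smc3-het against 21.5, 22.8 and 29.1 in Smc3-wt libraries. That background, taken from the lists, stood at 3.59 and 2.92 fragments a base in Smc3-het against 2.74, 1.93 and 3.02 in Smc3-wt libraries. The part of signal strength in the counts was not tested. List length was held fixed by taking the 26341 strongest peaks of each library, which left 24 and 48 broad peaks in Smc3-het against 217, 170 and 428 in Smc3-wt libraries.

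Of the HSPC markers Kit, Cd34, Flt3, Gata2, Spi1, Myb and Cd48, 6 and 5 of 7 had a peak of any width at a gene end in Smc3-het against 6, 7 and 7 of 7 in Smc3-wt libraries. T and NK cell markers had one at 1 and 0 of 5 genes in Smc3-het against 0, 1 and 3 of 5 in Smc3-wt libraries, with none at Cd3e and Cd3g in any library. B cell markers had 0 and 1 of 5 against 1, 3 and 3 of 5, erythroid markers 2 and 3 of 4 against 3, 4 and 4 of 4, and stromal and endothelial markers 3 and 3 of 5 against 4, 3 and 3 of 5. Mature neutrophil and monocyte markers had 2 and 4 of 5 in Smc3-het against 3, 3 and 3 of 5 in Smc3-wt libraries. Genes of other organs had 0 and 1 of 5 in Smc3-het against 1, 2 and 4 of 5 in Smc3-wt libraries. The lists held 26341 and 35335 peaks of any width in Smc3-het against 64486, 98196 and 118349 in Smc3-wt libraries. A longer list meets more genes of any kind, and the share over all genes was not counted. No difference in cell types between genotypes is therefore read from these counts. The part of these cell types in the broad regions was not tested.

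Most broad regions were broad in a single library. Of the 623, 439 (70.5%) were broad in 1 library, 116 in 2, 47 in 3, 12 in 4 and 9 in 5. Smc3-wt replicate 3 alone accounted for 281 (45.1%). In all, 60 regions were broad in at least 1 Smc3-het library, 12 of them in both. At least 1 Smc3-wt library was broad at 609, 52 of them in 3 of 3. Both patterns that separate the genotypes were rare: 1 region was broad in both Smc3-het libraries and no Smc3-wt library, and 31 were broad in all 3 Smc3-wt libraries and no Smc3-het library.

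The regions broad in 5 of 5 libraries began with a pair of loci made of multicopy sequence. The widest, chromosome 17, 39843045 to 39848720, overlapped the ribosomal pseudogene Rn18s-rs5 and the long noncoding RNA gene AY036118. Its widest peak measured 5657 and 5618 bp in Smc3-het against 5667, 5659 and 5655 bp in Smc3-wt libraries. The next, chromosome 1, 24611638 to 24616095, overlapped the pseudogenes Gm10222 and Gm10925, in a stretch known as a nuclear copy of mitochondrial DNA. Its summit pileup was 4059 and 2715 fragments in Smc3-het against 2741, 2977 and 3366 in Smc3-wt libraries, the highest of any broad peak in each library. Reads of such copies cannot be placed with certainty, so their values do not describe 1 locus.

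The other 7 regions broad in 5 of 5 libraries lay in or at protein-coding genes. The region at Gm20783 and LOC108167694 (chromosome 9, 124422855 to 124425833) had widest peaks of 2320 and 2349 bp in Smc3-het against 2565, 2972 and 2965 bp in Smc3-wt libraries. Crlf2, which encodes the receptor of the cytokine TSLP (chromosome 5, 109556755 to 109558972), had 2187 and 2120 bp in Smc3-het against 2207, 2217 and 2156 bp in Smc3-wt libraries. The region over Smc4, which encodes a subunit of condensin, and the cilium gene Ift80 (chromosome 3, 69004125 to 69006531), had 2109 and 2141 bp in Smc3-het against 2354, 2142 and 2396 bp in Smc3-wt libraries. Widths of the genotypes overlapped at Crlf2 and did not at Gm20783 and Smc4, where the Smc3-het peaks were the narrower ones. At Smc4 the separation was slight, with 2141 bp in Smc3-het replicate 2 beside 2142 bp in Smc3-wt replicate 2. The Crlf2 pileup did not overlap, at 91 and 122 fragments in Smc3-het against 303, 200 and 368 in Smc3-wt libraries.

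A further pair were divergent promoters. Uqcrh, a respiratory complex III subunit gene, faces Lrrc41 (chromosome 4, 116074730 to 116077368), with 2034 and 2227 bp in Smc3-het against 2534, 2230 and 2532 bp in Smc3-wt libraries. Hnrnpdl, an RNA-binding protein gene, faces the methionine salvage gene Enoph1 (chromosome 5, 100038409 to 100040532), with 2035 and 2010 bp in Smc3-het against 2068, 2083 and 2076 bp in Smc3-wt libraries. Kmt2e, which encodes a SET-domain chromatin protein (chromosome 5, 23432534 to 23435083), had 2046 and 2546 bp in Smc3-het against 2231, 2244 and 2080 bp in Smc3-wt libraries. Inside Stam2, an endosomal sorting gene (chromosome 2, 52696562 to 52698987), the pileup was low and level, at 39 and 32 fragments in Smc3-het against 31, 28 and 32 in Smc3-wt libraries, with widths of 2143 and 2238 bp in Smc3-het against 2088, 2209 and 2144 bp in Smc3-wt libraries.

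Of the 8 widest regions after the multicopy loci, Mbnl2 alone was broad in 3 of 3 Smc3-wt libraries, and the others in 1 or 2. Mbnl2, a splicing regulator gene (chromosome 14, 120275200 to 120279276), had widest peaks of 818 and 767 bp in Smc3-het against 2460, 2774 and 2398 bp in Smc3-wt libraries, so that the groups did not overlap. Inside Nipbl, the cohesin loader gene, where LOC102634078 also lies (chromosome 15, 8442741 to 8446502), they were 925 and 1040 bp in Smc3-het against 1317, 1807 and 3761 bp in Smc3-wt libraries. Neighbouring histone genes gave another 2 (chromosome 13, 21831477 to 21835085 and 21809042 to 21812500), each broad in Smc3-wt replicates 2 and 3. Acss1, Tmc8 and Myc were broad in Smc3-wt replicate 3 alone, at 3542, 3370 and 3328 bp, and the region near Ssbp4 in Smc3-wt replicates 1 and 2.

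Gene ends held most broad regions. A gene end, meaning the start or end of a protein-coding gene and the 1 kb around it, was touched by 477 of 623 regions (76.6%), 90 (14.4%) lay in gene bodies and 56 (8.99%) between genes. Of all 224370 regions of any width, 8.74% touched a gene end. By library, 70.8% and 83.3% of broad peaks were at gene ends in Smc3-het against 75.2%, 77.2% and 76.8% in Smc3-wt libraries. The narrower peaks of the same libraries gave 37.3% and 28.8% in Smc3-het against 18.9%, 13.8% and 12.2% in Smc3-wt libraries. The gene-end share of broad peaks was thus higher by 54.5 ± 12.5 percentage points (SD, n = 5), in 5 of 5 libraries (two-sided exact sign-flip permutation p 0.0625, the smallest that 5 libraries allow).

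A wide interval reaches a gene end more easily than a narrow one, so summits were also placed. By summit, 45.1 ± 13.8 percentage points more of the broad than of the narrower peaks were at gene ends (SD, n = 5; 5 of 5 libraries; two-sided exact sign-flip permutation p 0.0625). The strongest narrower peaks of each library were then taken, in the number of its broad peaks. That was 24 and 48 peaks in Smc3-het against 218, 171 and 444 in Smc3-wt libraries. The lists were thus cut at unlike ranks, so shares of these peaks cannot be compared between genotypes. Between genes lay 95.8% and 83.3% of them in Smc3-het against 23.4%, 29.2% and 14.2% in Smc3-wt libraries. A gene end was touched by 4.17% and 4.17% in Smc3-het against 65.1%, 62.0% and 75.9% in Smc3-wt libraries. Broad peaks exceeded these by 66.7 and 79.2 percentage points in Smc3-het against 10.1, 15.2 and 0.901 in Smc3-wt libraries (mean 34.4 ± 35.8, SD, n = 5; 5 of 5 libraries; two-sided exact sign-flip permutation p 0.0625). By summit the differences were 54.2 and 64.6 points in Smc3-het against 2.75, 9.36 and −6.98 in Smc3-wt libraries, with a mean of 24.8 ± 32.3 (SD, n = 5; higher in 4 of 5; exact permutation p 0.1875) and of 14.8 without Smc3-het replicate 2. Both means rest mainly on the Smc3-het libraries.

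**Figure D2:**
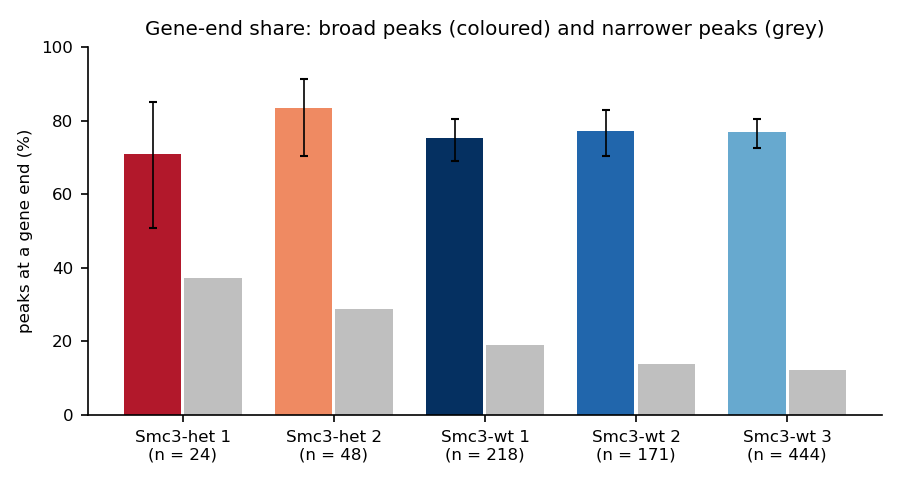
Share of peaks at a gene end, in percent, for broad peaks (coloured bars; error bars, Wilson 95% intervals, which cover counting error only; n, broad peaks) and narrower peaks (grey bars) of each library. Broad peaks lie between 70.8% and 83.3%, narrower peaks between 12.2% and 37.3%.

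Between genotypes the gene-end share of broad peaks was 77.1% ± 8.84 (SD, n = 2) in Smc3-het against 76.4% ± 1.04 (SD, n = 3) in Smc3-wt libraries. The difference of 0.675 percentage points was smaller than the spread between the Smc3-het libraries (two-sided exact permutation p 0.8, adjusted p 0.8 over 3 position classes). The difference turned to −5.57 without Smc3-het replicate 2, to −3.85 by summit and to −6.13 for gene starts only. Gene bodies held 6.25% ± 2.95 of broad peaks in Smc3-het (SD, n = 2) and 14.6% ± 0.552 in Smc3-wt libraries (SD, n = 3), at an exact permutation p of 0.2, the smallest this design allows (adjusted p 0.3). By gene starts this difference of −8.35 points was −1.47, and by summit −3.23.

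The space between genes held 16.7% ± 5.89 of broad peaks in Smc3-het (SD, n = 2) and 8.99% ± 0.569 in Smc3-wt libraries (SD, n = 3; two-sided exact permutation p 0.2, adjusted p 0.3). The 2 multicopy regions weigh more in the shorter Smc3-het lists. Without them the difference of 7.68 points was 2.95 (exact permutation p 0.4), and without Smc3-het replicate 1 it was 3.51. Counting all annotated genes turned it to −3.36, and counting peaks from 1500 bp turned it to −3.34.

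Paired gene starts were common among the regions. Of 425 broad regions with a gene start of the RefSeq promoter table, 121 (28.5%) held starts of 2 or more genes, beside 14.6% of the 10807 regions of any width with a start. A wider window can hold more starts, and no test was made. Long noncoding RNA genes overlapped 118 regions (18.9%), where all regions gave 10.4%. MicroRNA genes overlapped 12 (1.93%), where all regions gave 0.0691%, and tRNA genes 7 (1.12%), where all regions gave 0.0620%. Wider regions overlap more genes of any kind. The 56 regions between genes lay at a median of 25.2 kb from the nearest protein-coding gene, and 6 lay farther than 100 kb.

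Promoters in broad regions were rich in CpG dinucleotides, as CpG island promoters are. The median ratio of observed to expected CpG was 0.843 over 594 starts of protein-coding genes in broad regions. It was 0.809 over 8410 starts in regions called in 5 of 5 libraries but not broad, and 0.586 over all 20085 starts on these chromosomes. The median GC content was 65.7% in broad regions, 62.0% in the regions called in 5 of 5 libraries but not broad and 57.0% over all starts. The ETS core was found in 13.6% of promoters in broad regions, 22.8% of those called in 5 of 5 libraries but not broad and 11.9% of all.

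The other motifs were rarer in broad regions than over all promoters, the CCAAT box only slightly. The CCAAT box was in 35.9% of promoters in broad regions and 38.1% of all, the GATA site in 4.55% and 9.57%, the RUNX site in 2.19% and 4.77%, and the AP-1 site in 4.38% and 7.06%. In regions called in 5 of 5 libraries but not broad, the CCAAT, GATA, RUNX and AP-1 shares were 40.1%, 5.28%, 3.34% and 3.83%. Beside these, AP-1 was not rarer in broad regions. The sets also differed in GC content, and its part in the motif shares was not tested. These are matches of letters in 300-base windows, not sites, and the RefSeq table holds 1 or more starts for 16457 of 20665 protein-coding genes.

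A few blood regulators were among the genes at broad regions. Of 20665 protein-coding genes, 696 (3.37%) had a broad region inside the gene or within 1 kb, and 7 of 69 genes (10.1%) in the lists of stem cell, myeloid, erythroid and megakaryocyte, lymphoid, and AP-1 and immediate early regulators did. By list these were 3 of 16 stem cell regulators, 0 of 12 myeloid regulators, 0 of 7 erythroid and megakaryocyte regulators, 1 of 15 lymphoid regulators and 3 of 19 AP-1 and immediate early genes. A long gene offers more room for a region than a short one. None of the 7 genes had a region broad in a Smc3-het library, where the share of all genes was 0.348%, against 3.26% for Smc3-wt libraries. Within 20 kb the count was 8 of 69, with the erythroid factor gene Nfe2 added, where all genes gave 5.3%. As the gene nearest to a region, 7 of 69 were counted, where all genes gave 2.96%.

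Among the stem cell regulators, Runx1, the DNA-binding partner of Cbfb, had the region broad in most libraries (chromosome 16, 92696713 to 92698969). Its widest peak was 874 and 1012 bp in Smc3-het against 2004, 2001 and 2174 bp in Smc3-wt libraries. These widths did not overlap, and the first 2 Smc3-wt values lay just above the threshold. Each Smc3-het list called 2 peaks there, and each Smc3-wt list 1. Together they covered 75.2% and 74.6% of the region in Smc3-het against 88.8%, 88.7% and 96.4% in Smc3-wt libraries, a smaller gap than in width. Inside Erg, an ETS factor gene (chromosome 16, 95439104 to 95441721), the widths were 1328 and 1190 bp in Smc3-het against 2617, 1229 and 1506 bp in Smc3-wt libraries, with only replicate 1 broad. At the start of Etv6, another ETS factor gene (chromosome 6, 134034605 to 134036609), they were 1420 and 1338 bp in Smc3-het against 1860, 2004 and 1683 bp in Smc3-wt libraries. The Smc3-het libraries were the narrower ones at Runx1 and Etv6, and overlapped with Smc3-wt at Erg.

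Fli1, the ETS factor named in the series title, had no broad region, and neither had Gata2. The widest Fli1 peak was 1499 and 952 bp in Smc3-het against 1204, 1854 and 1579 bp in Smc3-wt libraries, so the groups overlapped. Smc3 itself had 969 and 1215 bp in Smc3-het against 1165, 1567 and 1318 bp in Smc3-wt libraries. Peak width cannot show the loss of 1 allele. At the start of Cbfb (chromosome 8, 105170110 to 105172305) the widest peak was 501 and 1144 bp in Smc3-het against 1816, 866 and 2195 bp in Smc3-wt libraries. Myh11, the other partner of the human fusion, had no peak over 496 bp in any library.

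Among lymphoid regulators, the forkhead gene Foxp1 held 2 broad regions. That at chromosome 6, 99521549 to 99523671, had no peak in Smc3-het replicate 1, 647 bp in Smc3-het replicate 2 and 2002, 1811 and 2119 bp in Smc3-wt libraries. Inside the gene (chromosome 6, 99094770 to 99096874) the widths overlapped, at 717 and 1637 bp in Smc3-het against 1303, 1880 and 2104 bp in Smc3-wt libraries. Of the immediate early genes, Myc (chromosome 15, 61984871 to 61988199) had 693 and 573 bp in Smc3-het against 1393, 1819 and 3328 bp in Smc3-wt libraries. The growth factor-induced gene Ier5 (chromosome 1, 155097563 to 155099978) had 951 and 1195 bp in Smc3-het against 2413, 843 and 2288 bp in Smc3-wt libraries. Egr1, a zinc finger gene of the first response to stimuli, had 1490 and 1732 bp in Smc3-het against 1869, 2000 and 1811 bp in Smc3-wt libraries. The groups did not overlap at Myc and Egr1 and overlapped at Ier5.

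Signalling genes had 4 of 14 members with a broad region, each at a gene start, where all genes gave 3.37%. At Socs1, a feedback inhibitor of cytokine and interferon signalling (chromosome 16, 10784614 to 10786853), the widths were 1753 and 1853 bp in Smc3-het against 2239, 1964 and 2043 bp in Smc3-wt libraries. Cish, a related inhibitor, Cxcr4, the chemokine receptor that holds progenitors in the marrow, and Dusp6, a phosphatase of ERK kinases, were broad in Smc3-wt replicate 3 alone, at 2011, 2360 and 2437 bp. The receptor genes Kit, Flt3 and Csf1r had none. Interferon response genes had 2 of 12, Irf9 and Oasl2, at 2028 and 2213 bp in Smc3-wt replicate 3 alone.

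Of the cohesin and CTCF genes, 2 of 9 had a broad region, and the share over all genes of 3.37% stands beside this and the next counts. Besides Nipbl this was Ctcf, the gene of the insulator protein that stops cohesin (chromosome 8, 105635811 to 105637937), with 1501 and 1465 bp in Smc3-het against 2049, 1859 and 2126 bp in Smc3-wt libraries. Chromatin regulators had 2 of 11. Tet2, a DNA demethylation gene, had 1264 and 1262 bp in Smc3-het against 1964, 2024 and 2446 bp in Smc3-wt libraries. Kdm6b, a histone H3 demethylase gene (chromosome 11, 69408608 to 69411748), was the 1 list gene with a region broad in a Smc3-het library, at 2017 and 1240 bp in Smc3-het against 1293, 1319 and 3140 bp in Smc3-wt libraries. Housekeeping genes had 2 of 11, Eef1a1 and Ywhaz. Of the cell type markers, Cd48 and the erythropoietin receptor gene Epor each had a region broad in 1 Smc3-wt library, and platelet effector genes had 0 of 8.

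**Figure D3:**
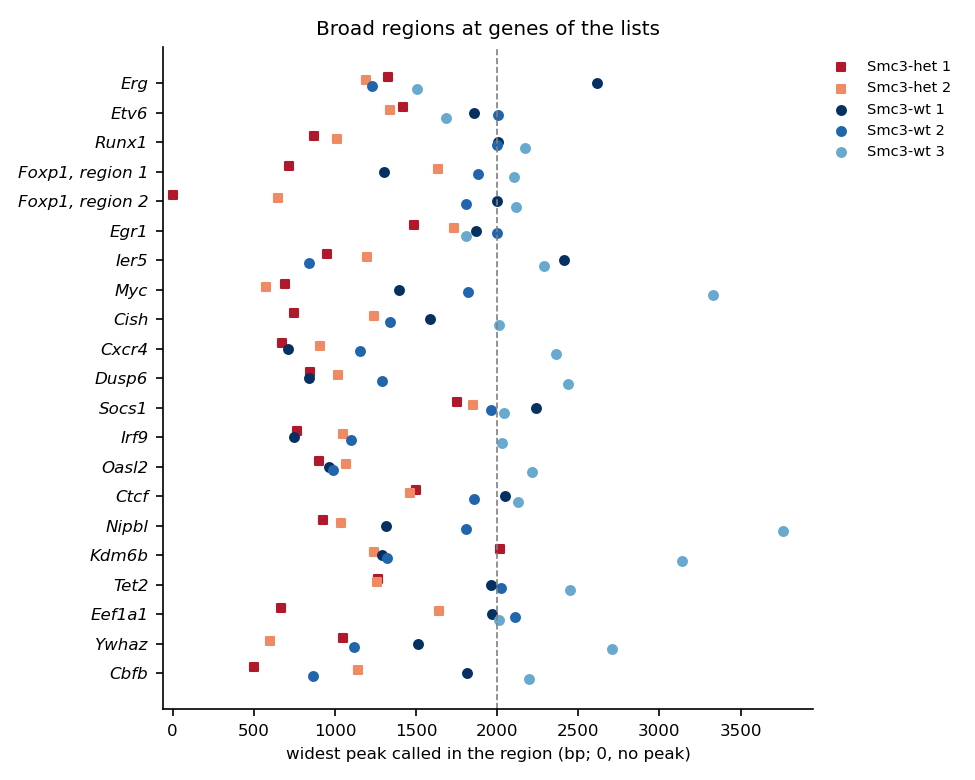
Widest peak, in bp, that each library called in the broad regions at list genes (rows; squares, Smc3-het; circles, Smc3-wt; dashed line, 2000 bp; 0, no peak). At Runx1 the widest Smc3-het peaks, of 2 in each list, measure 874 and 1012 bp and the Smc3-wt peaks 2004, 2001 and 2174 bp. At Cbfb the groups overlap.

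Genes of the regulator lists had wider peaks than the median gene in every library, and so did housekeeping genes. The measure was the widest of all peaks at a gene, and a gene without a peak counted as 0 bp. A gene with many peaks thus has more chances of a wide one, and genes without peaks lower the median. The median widest peak in or within 1 kb of the 16 stem cell regulators was 694.5 and 977.5 bp in Smc3-het against 937, 1252 and 1586 bp in Smc3-wt libraries. Over all protein-coding genes it was 473 and 525 bp in Smc3-het against 721, 718 and 855 bp in Smc3-wt libraries. The 12 myeloid regulators had 677 and 646 bp in Smc3-het against 890, 892 and 1109 bp in Smc3-wt libraries, below the threshold at every member. Housekeeping genes had 881 and 894 bp in Smc3-het against 1258, 1055 and 1095 bp in Smc3-wt libraries.

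Histone genes, looked at after their place among the widest regions was seen, had 22 of 75 members (29.3%) in or within 1 kb of a broad region, where all genes gave 3.37%. They lay at 10 regions. Histone genes stand in clusters, and near-identical copies can share reads. Ribosomal protein genes had 2 of 91 and olfactory receptor genes 0 of 1104.

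Nearly all regions broad in Smc3-wt libraries were open in Smc3-het libraries too, under narrower peaks. Of the 609, 27 had no peak in Smc3-het replicate 1 and 16 none in replicate 2, and 6 had none in either. Peaks in 5 of 5 libraries were called at 585 of the 623 broad regions, beside 14288 of the 224370 regions of any width. These 2 sets were not matched for signal strength, so the counts are not read as particular to broad regions. The lists covered 50.5% and 57.4% of the length of the 609 regions in Smc3-het replicates 1 and 2. Smc3-wt replicates 1, 2 and 3 covered 78.9%, 73.9% and 92.4%, but these libraries chose the regions. The median widest peak there was 944 and 1117 bp in Smc3-het libraries. In 32.8% and 30.4% of the regions the Smc3-het lists called 2 or more separate peaks.

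Regions were also built from 2 Smc3-wt libraries alone, so that the other Smc3-wt library set neither their choice nor their bounds. In the 91 regions broad in both Smc3-wt replicates 2 and 3, the lists covered 63.8% and 70.1% of the length in Smc3-het against 85.7% in the unused Smc3-wt replicate 1. In the 118 regions broad in both replicates 1 and 3, it was 58.0% and 66.2% in Smc3-het against 81.1% in Smc3-wt replicate 2. In the 67 broad in both replicates 1 and 2, it was 64.6% and 70.6% in Smc3-het against 90.2% in Smc3-wt replicate 3. Each unused Smc3-wt library thus covered more than both Smc3-het libraries. Of the same regions, 14.3% and 26.4% of the 91 were broad in Smc3-het against 57.1% in Smc3-wt replicate 1, 10.2% and 20.3% of the 118 in Smc3-het against 44.1% in Smc3-wt replicate 2, and 16.4% and 29.9% of the 67 in Smc3-het against 77.6% in Smc3-wt replicate 3.

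**Figure D4:**
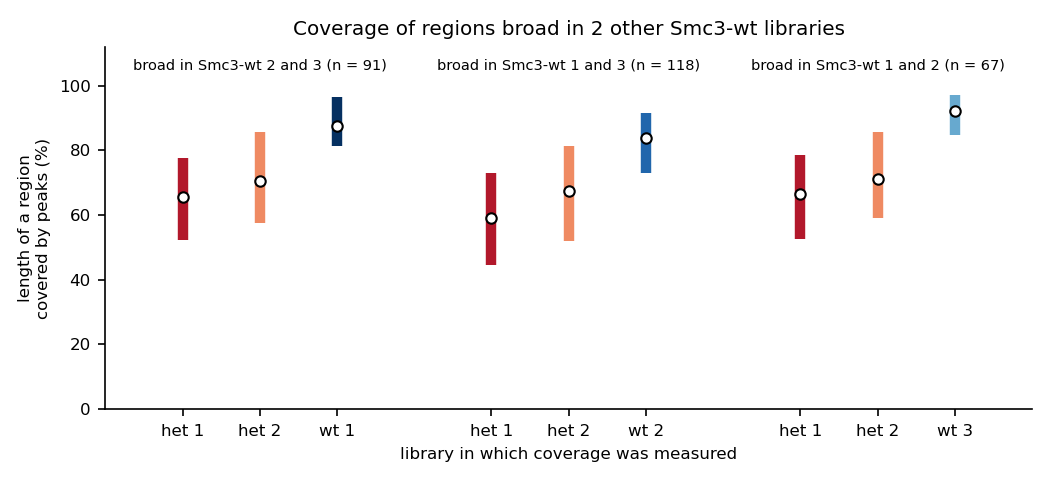
Share of each region's length covered by called peaks, in percent (circles, median over regions; bars, the middle 50% of regions), for regions broad in 2 Smc3-wt libraries, measured in both Smc3-het libraries and in the Smc3-wt library not used to choose them. The medians are 65.7% and 70.6% against 87.5% in the first set, 59.2% and 67.6% against 83.7% in the next and 66.5% and 71.1% against 92.2% in the last.

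In the opposite direction, broad peaks of Smc3-het libraries were often broad in Smc3-wt libraries. Of the 24 broad peaks of Smc3-het replicate 1, 12 were broad in Smc3-het replicate 2, against 14, 13 and 18 in Smc3-wt replicates 1, 2 and 3. Of the 48 of Smc3-het replicate 2, 12 were broad in Smc3-het replicate 1, against 29, 25 and 32 in Smc3-wt libraries. Each of these peaks met a peak in every other library. Over the 585 broad regions called in 5 of 5 libraries, the widest peak was narrower in both Smc3-het than in all Smc3-wt libraries at 325 (55.6%) and wider at 2 (0.342%). Over all 14288 regions called in 5 of 5 libraries the shares were 43.4% and 0.994%, so narrower Smc3-het peaks were common outside the broad regions as well. The choice by width fixes part of the members' share, and nothing is read from it.

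Around gene starts, the peaks reached less far to both sides in Smc3-het libraries. In 248 regions broad in Smc3-wt with 1 gene start, a peak covered the start itself in 78.6% and 84.7% in Smc3-het against 93.1%, 90.3% and 98.4% in Smc3-wt libraries. At 1000 bp into the gene a peak was present in 31.5% and 31.5% in Smc3-het against 54.8%, 52.0% and 69.8% in Smc3-wt libraries. At 1000 bp upstream it was 18.1% and 20.6% in Smc3-het against 31.9%, 29.4% and 36.3% in Smc3-wt libraries. The Smc3-wt libraries chose these regions, so the values are a description.

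The regions extended farther into genes than upstream of them. Over 255 regions with 1 gene start the median reach was 896 bp upstream and 1395 bp downstream, and 176 (69.0%) were longer downstream. Narrower peaks leaned the same way, and the share longer downstream differed between broad and narrower peaks by −0.575 percentage points on average over libraries (two-sided exact sign-flip permutation p 0.875). By library it was −2.32 and −18.3 in Smc3-het against 9.71, 1.27 and 6.76 in Smc3-wt libraries, and the mean turned to 3.86 without Smc3-het replicate 2. Only 7 and 19 broad peaks could be placed this way in Smc3-het libraries.

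**Figure D5:**
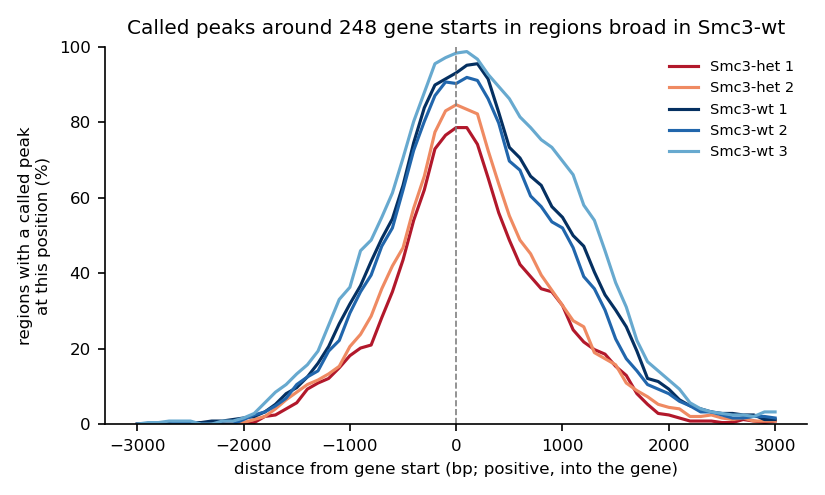
Share of 248 gene starts in regions broad in Smc3-wt, in percent, at which each library had a called peak at the given distance from the start in bp (positive, into the gene). Smc3-het replicates reach 78.6% and 84.7% at the start, and Smc3-wt replicates 93.1%, 90.3% and 98.4%.

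The regions with the widest gap, broad in all 3 Smc3-wt libraries and no Smc3-het library, lay at genes of several kinds, and this ranking was chosen after the values were seen. At the start of Tent5a, a poly(A) polymerase gene (chromosome 9, 85325423 to 85328656), the widest peak was 895 and 1317 bp in Smc3-het against 3228, 3051 and 3016 bp in Smc3-wt libraries. Inside Dok2, an adaptor gene of tyrosine kinase signalling in blood cells (chromosome 14, 70774086 to 70776626), it was 632 and 672 bp in Smc3-het against 2292, 2464 and 2334 bp in Smc3-wt libraries. The Dok2 pileup was low and overlapped, at 39 and 22 fragments in Smc3-het against 44, 28 and 39 in Smc3-wt libraries. Divided by the library's background it did not overlap, at 10.9 and 7.53 in Smc3-het against 16.1, 14.5 and 12.9 in Smc3-wt libraries.

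Mbnl2 followed, and then Tle1, a Groucho-type corepressor gene (chromosome 4, 72198897 to 72201728), with 1062 and 1058 bp in Smc3-het against 2805, 2592 and 2831 bp in Smc3-wt libraries. Sgk3, a kinase gene (chromosome 1, 9797233 to 9799541), had no peak in Smc3-het replicate 1, 594 bp in Smc3-het replicate 2 and 2308, 2024 and 2078 bp in Smc3-wt libraries. Mepce, whose product caps the 7SK RNA (chromosome 5, 137785163 to 137788052), had 864 and 794 bp in Smc3-het against 2724, 2167 and 2245 bp in Smc3-wt libraries. No region broad in 3 of 3 Smc3-wt libraries lacked a peak in both Smc3-het libraries. The 6 regions broad in 1 Smc3-wt library with no Smc3-het peak had low summits in that library, as at the NK receptor gene Klre1, with 29 fragments in Smc3-wt replicate 1, and Gigyf1, with 25 in Smc3-wt replicate 3.

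Regions broad in Smc3-het alone numbered 14. The 1 broad in both Smc3-het libraries lay at Fcgr3, an IgG Fc receptor gene (chromosome 1, 171063828 to 171066100), over 4 tRNA genes, with 2159 and 2272 bp in Smc3-het against 1557, 1342 and 1770 bp in Smc3-wt libraries. At the ETS factor gene Etv1 (chromosome 12, 38778266 to 38781013) the widths were 1095 and 2747 bp in Smc3-het against 1164, 1580 and 1341 bp in Smc3-wt libraries, while the pileup was 41 and 39 fragments in Smc3-het against 151, 106 and 232 in Smc3-wt libraries. Alkbh5, an RNA demethylase gene, Rsf1, a chromatin remodelling gene, Icam4, a red cell adhesion gene, and Klf16 were broad in Smc3-het replicate 2 alone, at 2174, 2153, 2134 and 2108 bp. At Rsf1 Smc3-het replicate 1 had 651 bp, below the 1235, 1864 and 1991 bp of Smc3-wt libraries.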

How the data were processed

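Peaks were called with MACS2 on reads aligned with Bowtie2 to mm10, per the submitters' processing notes, each of a version not given in the sources used here. Names of peaks show 1 list per library, mitochondrial reads removed and paired-end calling. Per the file headers, the deposited lists give each peak's interval, the signal at its summit as a fragment pileup, and its fold enrichment over local background. The headers of 2 columns were lost, and their place and values fit MACS2's −log10 p and −log10 q, which is how these deposited values were read. These scores are the authors' own and served to rank, filter or describe peaks. Fragment totals per library are unknown. Background was the commonest value of (pileup + 1)/fold − 1.

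Rows on chromosomes 1 to 19 with end minus start of at least 2000 bp were merged at 1 bp of overlap. Groups and replicate numbers came from the sample titles. Genes were 20665 protein-coding genes of GRCm38.p6, the build of mm10. Position shares were compared by exact permutation tests over 10 splits of 5 libraries, with Benjamini-Hochberg adjustment over 3 classes (smallest p 0.2). Functions were tested on simulated intervals. Python 3.11.15, numpy 2.4.6, pandas 2.3.3, scipy 1.17.1 and matplotlib 3.10.9 were used. Members and lists were chosen with earlier results of these data known. Named were the 10 widest regions, those broad in 5 of 5 libraries, list genes with a broad region, the widest regions broad in Smc3-het alone, and Smc3, Cbfb, Myh11 and Fli1.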

Additional observations from a re-analysis of the deposited data

How the results depend on the processing

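No position difference passed a threshold of 0.05 under any setting, which this design does not allow. The gene-end difference, 0.675 points in favour of Smc3-het, turned to −2.34 with gene ends within 2.5 kb, −48.3 for peaks from 3000 bp, −0.694 for the 24 widest peaks of each library, −6.13 for gene starts only and −3.85 by summit, and ran from −5.57 to 6.93 when 1 library was left out. The intergenic difference turned to −3.34 for peaks from 1500 bp and −3.36 with all annotated genes. The gene-body difference kept its sign. The summit setting and the one without the multicopy regions were chosen after seeing the data. The difference in broad peaks per library, −242, was −1399 from 1500 bp and −6.33 from 3000 bp. The merged regions, 623, were 3475 from 1500 bp and 15 from 3000 bp, and 342 to 620 when 1 library was left out, with 342 without Smc3-wt replicate 3. The Smc3-het cover of regions broad in Smc3-wt, 54.0%, was 61.2% from 3000 bp, 69.0% in regions broad in 3 of 3 Smc3-wt libraries and 50.5% to 59.9% when 1 library was left out. From 3000 bp each Smc3-het list held 2 peaks, both at the multicopy loci between genes. Its gene-end share was thus 0%, against a mean of 48.3% in Smc3-wt libraries. The cause of the other shifts was not tested. With replicates 1 and 2 as pairs, a replicate block, the gene-end difference was 0.872, the gene-body difference −8.34 and the intergenic difference 7.46 points (exact permutation p 1, 0.5 and 0.5), and the broad peak difference −158.5. Whether the numbers pair the libraries could not be told, since the labels tie them by number alone and with 2 Smc3-het libraries the deviations from their mean are mirror images. Fragment totals are unknown, so no limit by depth can be given.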
